A study of Mus musculus with 8 samples.

Results

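The cornified envelope is the protein shell that replaces the plasma membrane of a keratinocyte at the end of its life, and most of its building blocks are encoded side by side in a gene cluster called the epidermal differentiation complex. Its genes were read here in paw tissue of mice that had received prolactin, by a rule on gene symbols: every row whose symbol starts with Sprr or Lce and a digit, plus 11 symbols named one by one. Of 22609 gene rows 42 met it. They were 15 Sprr (small proline-rich protein) genes, 17 Lce (late cornified envelope) genes and 10 of the 11 single symbols, namely Lor, Ivl, Flg2, Hrnr, Rptn, Crnn, Sbsn, Casp14, Tgm1 and Tgm3. The eleventh symbol, Flg, was not analysed here. In the RefSeq annotation of GRCm38.p6, 38 of the 42 lie on chromosome 3. Sbsn, Casp14, Tgm1 and Tgm3 lie on chromosomes 7, 10, 14 and 2.

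Whole paw tissue of C57BL/6J mice, an inbred strain, gave 4 male and 4 female libraries. Both sexes bore the same label, prolactin at 0.1 µg injected intraplantarly once a day for 12 days. Ages are not given in the labels, and vehicle arms named in the protocol were not analysed here, so every value describes the treated paw and the comparison is female against male. The series' design text counts 4 males and 4 females, but the labels tie no library to an animal, so the p-values measure the spread between these libraries, which may be technical. Levels are given in CPM (counts over the library size, the latter scaled by the TMM method). A log2 difference, or log2 fold change, sets female over male, so values below 0 are lower in females; SE is its standard error.

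As background, keratinocytes make the envelope in a fixed order while they climb from the basal to the horny layer. Involucrin (Ivl) and the small proline-rich proteins form an early scaffold, loricrin (Lor) makes up most of the finished shell, and the late cornified envelope proteins are added last. Transglutaminases (Tgm1, Tgm3) weld these proteins together. The fused S100 proteins filaggrin, filaggrin-2, hornerin, repetin and cornulin are stored in granules and released as the cell flattens, and caspase-14 takes part in the breakdown of filaggrin. Sprr1b, the Sprr2 genes and the Lce3 genes are known to rise in wounded or inflamed epidermis, whereas Lor and the Lce1 genes belong to undisturbed skin.

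Many of these genes are near copies of each other, which bears on what a 50-base read can count. The first 50 coding bases of 7 Sprr2 genes are shown because this is the length of 1 read; they were read from GENCODE transcripts (release M21, GRCm38), 5′ to 3′, and capitals mark bases that differ from Sprr2a1.
Sprr2a1: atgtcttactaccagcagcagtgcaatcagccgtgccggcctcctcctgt
Sprr2a2: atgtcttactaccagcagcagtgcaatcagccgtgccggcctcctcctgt
Sprr2a3: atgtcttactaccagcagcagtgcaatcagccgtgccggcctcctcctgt
Sprr2b: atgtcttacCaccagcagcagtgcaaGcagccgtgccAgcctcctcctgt
Sprr2h: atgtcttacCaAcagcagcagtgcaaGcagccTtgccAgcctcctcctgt
Sprr2d: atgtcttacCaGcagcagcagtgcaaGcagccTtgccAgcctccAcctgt
Sprr2e: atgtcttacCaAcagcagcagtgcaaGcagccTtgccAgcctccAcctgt
Sprr2a1, Sprr2a2 and Sprr2a3 are identical over this stretch, Sprr2b differs at 3 bases, Sprr2h at 5, and Sprr2d and Sprr2e at 6 each.

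For each of the 42 genes, every 50-base window of its longest coding transcript was looked up in all GENCODE transcripts. A window counts as unique when it occurs once in that transcript and in no transcript of another locus. For 11 genes, Lor, Crnn, Casp14, Tgm1, Tgm3, Lce6a, Sprr1a, Sprr2g, Sprr2k, Sprr3 and Sprr4, 100% of the windows were unique, and for 23 the share was under 90%. It was 3.72% for Sprr2a1 and 3.55% for Sprr2a2, with 0% within the coding part of either. Both genes had 0 counts in all 8 libraries. Hrnr, whose hornerin protein is built of internal repeats, had 30.9% unique windows, Lce3f 52% and Lce3c 64.3%, while the 12 Lce1 genes had 72.9 to 96.8%. Within the coding part of Lce3f the share was 0%, so all its unique windows reach outside it. Counts of such genes are reads that could be placed and not all reads, and levels of close paralogs are uncertain.

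**Figure D1:**
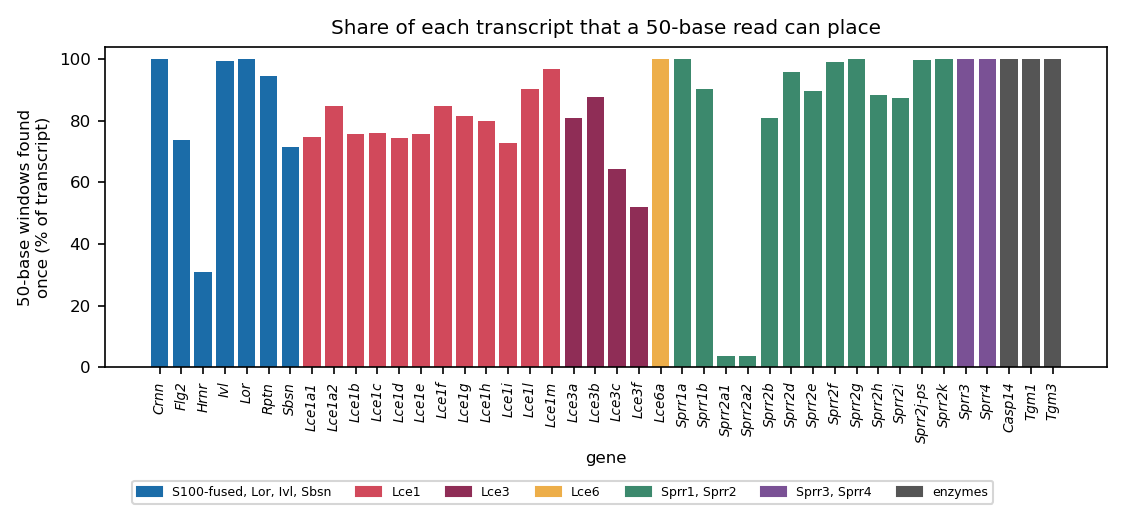
Share of 50-base windows that are found once (percent of the windows of the longest coding transcript, GENCODE release M21) for each of the 42 genes, coloured by family. Sprr2a1 and Sprr2a2 stand at 3.72% and 3.55% and Hrnr at 30.9%, while 11 genes stand at 100%.

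The whole set took 1.33 to 2.26% of the reads in genes, of 16753528 to 24993744 reads per library. Y-linked transcripts parted the libraries as labelled, with 516 to 2882 counts per gene in each male and 0 to 3 in each female for 4 genes. Epidermis was present throughout: the mean log2 CPM of 18 keratinocyte markers was 9.62 to 10.04 in males and 9.42 to 10.14 in females. Skeletal muscle was not even. The same score for 18 fast muscle genes was 4.97 to 10.03 in males and 0.55 to 9.57 in females, with the highest value in male replicate 2 and the lowest in female replicate 3. In whole tissue, fewer cells of a type and less RNA per cell cannot be told apart.

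Between the sexes, envelope transcripts lay lower in females on average across nearly every family, but no single gene passed the test over all genes. Of the 42 genes 36 had enough counts to be tested, and 34 of these had a log2 fold change below 0, with a median of -0.33. Over all 14790 genes tested, 47.3% lay below 0 and the median was 0.01. EdgeR's quasi-likelihood test with Benjamini-Hochberg adjustment called 0 of the 36 at an adjusted p under 0.05 (background 0.0947% of all genes in either direction, 0.0541% lower in females). An unadjusted p under 0.05 was reached by 6 of the 36, Crnn, Lor, Sprr1b, Lce3c, Lce3f and Ivl, and all 6 were lower in females, a direction in which 2.45% of all tested genes had such a p (6.53% in either direction). DESeq2 called 2 of the 36, Crnn and Lor (background 0.372% called lower in females, 0.758% in either direction). For 25 of the 36 the pair of lowest libraries was female replicates 1 and 4, so the 34 are not separate observations. Summed over the 42 genes, female replicates 1 and 4 stood at 13126 and 15064 CPM. Female replicates 2 and 3 stood at 20705 and 20475 CPM, within the male range of 17559 to 22935 CPM. Of the 36, Lce3a, Lce3b, Sprr2e, Sprr2i and Sprr2k were near the filter on low counts. Sprr2e met the CPM minimum of the filter in 3 male libraries and 1 female library, and Lce3a and Lce3b each in 3 male and 2 female libraries. Their passage thus leaned on the males, where they were higher, and their fold changes carry no weight as support. Sprr2i met it in 2 libraries of each sex and Sprr2k in 3 of each. In the 31 genes with at least 2 CPM in every library, 29 lay below 0 with a median of -0.20, against 46.7% below 0 among all genes at that level.

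**Figure D2:**
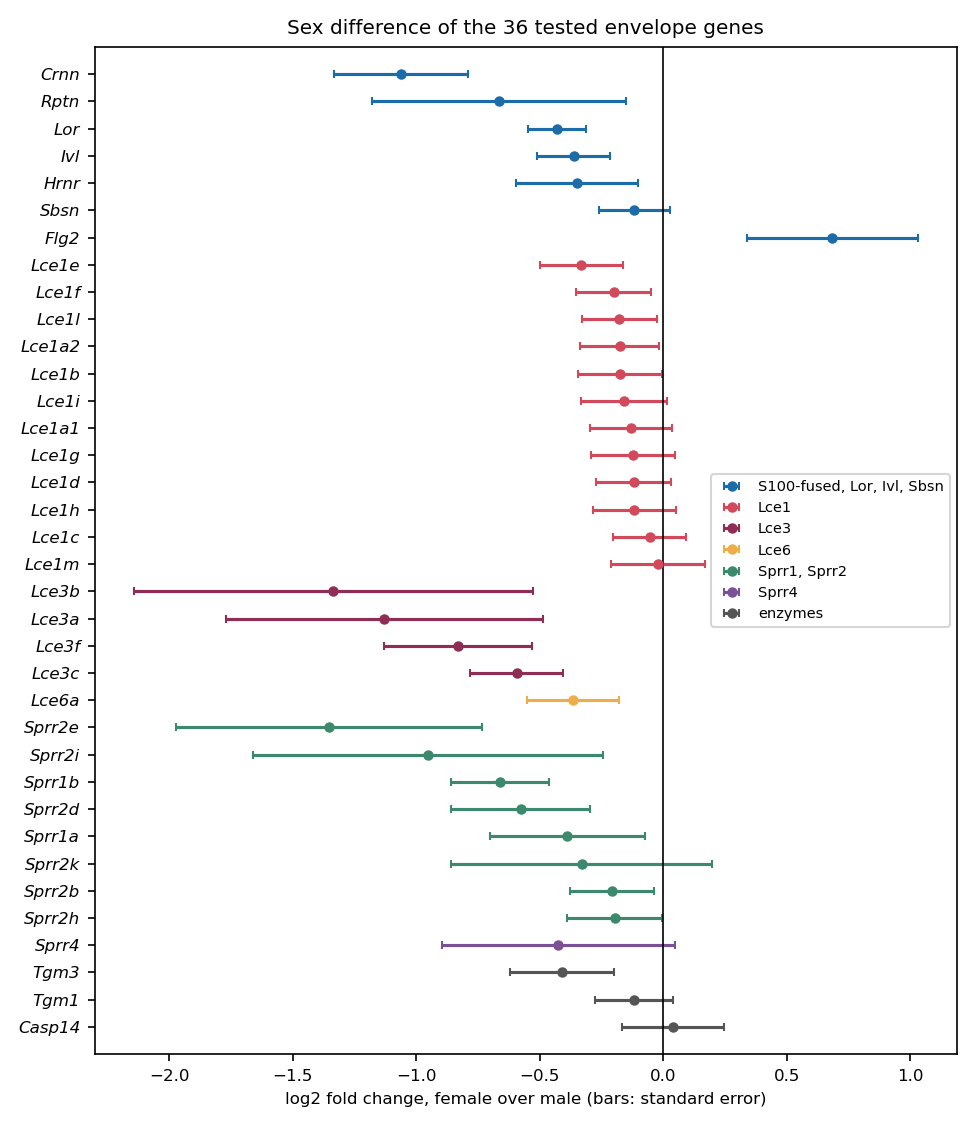
Log2 fold change, female over male, of the 36 tested genes (points) with the standard error (bars), grouped and coloured by family; the vertical line marks 0. Only Flg2 (0.68) and Casp14 (0.04) lie to the right of it, Sprr2e (-1.35), Lce3b (-1.34), Lce3a (-1.13) and Crnn (-1.06) lie farthest to the left, and none passed the test. Sprr2e, Lce3b and Lce3a were near the filter on low counts.

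Among the granule and scaffold proteins the gene with the smallest p was Crnn, which encodes cornulin, a fused S100 protein best known from the lining of the oesophagus. Crnn stood at 66.4, 59.1, 51.1 and 76.3 CPM in male replicates 1 to 4 and at 25.3, 23.6, 49.9 and 22.3 CPM in female replicates 1 to 4. All females lay below all males, although female replicate 3 came close to the lowest male. The means were 63.2 ± 10.7 CPM in males and 30.3 ± 13.2 CPM in females (SD, n = 4 each; fitted log2 difference -1.06 with SE 0.27, edgeR unadjusted p = 0.00427, adjusted p = 0.471). DESeq2 called it (adjusted p = 0.0241). Without female replicate 3 edgeR called it as well, with a log2 fold change of -1.41 (adjusted p = 0.0267), and so did a fit with the fast muscle score as a covariate (-1.30, adjusted p = 0.0168). The other 17 alternatives did not call it, among them the keratinocyte covariate (adjusted p = 0.109), the fit without male replicate 2 and female replicate 3 (adjusted p = 0.0715) and the omission of any other single library (adjusted p of 0.565 to 0.998).

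Lor, the bulk protein of the envelope, had the highest level per kilobase of transcript in the set, 1406 CPM per kb as a mean over 8 libraries. It stood at 3049, 2771, 2924 and 2737 CPM in the males and 1897, 2494, 2085 and 2047 CPM in the females. Again no female library reached the lowest male. The means were 2871 ± 144 CPM in males and 2131 ± 255 CPM in females (fitted log2 difference -0.43 with SE 0.12, edgeR unadjusted p = 0.00578, adjusted p = 0.511), and DESeq2 called it (adjusted p = 0.00496). Of the 36 genes only Crnn and Lor had no overlap between the sexes, where 1.81% of all tested genes had none with females lower. Both also had none when CPM were computed without TMM scaling. The log2 fold change of Lor ranged from -0.51 to -0.38 over the alternatives computed.

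The regions just before these 2 genes, before Sprr1b and before Flg2 are shown because the first 3 had the smallest p, all lower in females, and Flg2 lies next to Crnn and lay above 0. Each run is the 250 bases before the gene's start in RefSeq (GRCm38.p6), 5′ to 3′ on the gene's strand. Capitals mark TGANTCA on either strand and TATAAA, the TATA box, on the gene's strand. TGANTCA, with any base at N, is a loose pattern for AP-1 (Fos and Jun proteins), whose usual site has C or G at N.
Lor, chr3:92083143-92083392, minus strand: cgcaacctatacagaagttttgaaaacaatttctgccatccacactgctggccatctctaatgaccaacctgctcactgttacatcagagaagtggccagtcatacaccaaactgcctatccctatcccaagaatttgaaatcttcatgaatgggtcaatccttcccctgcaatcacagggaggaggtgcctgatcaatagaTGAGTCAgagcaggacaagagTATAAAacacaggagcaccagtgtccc
Crnn, chr3:93144539-93144788, plus strand: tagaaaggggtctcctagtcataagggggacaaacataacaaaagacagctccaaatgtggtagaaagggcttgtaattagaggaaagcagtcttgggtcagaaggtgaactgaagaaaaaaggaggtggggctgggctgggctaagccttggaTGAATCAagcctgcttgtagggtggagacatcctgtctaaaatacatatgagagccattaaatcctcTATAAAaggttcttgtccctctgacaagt
Sprr1b, chr3:92438780-92439029, minus strand: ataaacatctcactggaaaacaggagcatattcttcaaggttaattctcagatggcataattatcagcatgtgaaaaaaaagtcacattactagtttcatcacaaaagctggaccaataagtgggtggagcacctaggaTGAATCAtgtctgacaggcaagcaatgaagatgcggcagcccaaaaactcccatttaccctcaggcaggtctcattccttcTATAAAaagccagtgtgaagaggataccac
Flg2, chr3:93197023-93197272, plus strand: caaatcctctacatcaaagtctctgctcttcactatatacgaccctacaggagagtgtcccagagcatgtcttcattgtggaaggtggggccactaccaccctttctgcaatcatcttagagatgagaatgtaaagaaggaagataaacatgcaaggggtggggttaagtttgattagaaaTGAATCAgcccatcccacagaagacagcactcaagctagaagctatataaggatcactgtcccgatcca
Each of the 4 holds 1 match to TGANTCA, which begins 48 bases before the start in Lor, 96 in Crnn, 111 in Sprr1b and 69 in Flg2. The match reads TGAGTCA in Lor and TGAATCA in Crnn, Sprr1b and Flg2. Genes on either side of 0 thus hold the loose pattern.

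Of the 42 genes 39 had a promoter in the RefSeq table. TGANTCA occurred, on either strand, before 15 of the 39 (38.5%) and before 6.75% of all 32851 promoters of the same length. All 15 belonged to the fused S100, Lor, Ivl, Sbsn and Sprr genes, and no Lce gene or enzyme gene held it. Matches with C or G at N were not counted apart. TATAAA, searched on both strands for this count, occurred before 19 of the 39 (48.7%) and 12.4% of all promoters. The letters TTCNNNGAA, bound by the prolactin-activated factor STAT5, occurred before 2 of the 39, Lce1l and Tgm1 (5.13%), and 7.02% of all promoters. CACCC, bound by KLF factors, occurred before 46.2% of the members and 52.0% of all promoters. In 1 of the 39 a TGANTCA match overlapped a CACCC match, and no other pair of motifs overlapped. Paralogs share promoter sequence, and a match of letters is not a bound site.

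Flg2, the filaggrin-2 gene, lies next to Crnn on chromosome 3 and, with Casp14, was 1 of the 2 genes above 0. It stood at 117, 178, 123 and 123 CPM in the males and 174, 185, 389.7 and 120.1 CPM in the females. Female replicate 3 was the highest library, and female replicate 4 lay within the male range. The difference did not pass (135 ± 28.6 CPM in males and 217 ± 118 CPM in females; fitted log2 difference 0.68 with SE 0.35, edgeR adjusted p = 0.81) and was 0.24 on the log2 scale without female replicate 3. Casp14, which encodes caspase-14, had nearly equal means, 226 ± 17.6 CPM in males and 232 ± 73.7 CPM in females (fitted log2 difference 0.04 with SE 0.20, edgeR adjusted p = 0.999). Its libraries ran from 160.0 CPM in female replicate 4 to 330.0 CPM in female replicate 3, and its direction flipped in 5 of 20 alternatives.

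Within each library, Crnn was set against its neighbour Flg2, a ratio that neither library size nor scaling touches. There were 332 to 618 Crnn reads per 1000 Flg2 reads in males and 127 to 186 in females. Female replicate 3, which is high for both genes, had 128 and so stood with the other females. This ratio was picked after the values were seen and is given without a test. For context, all 465 ratios between 2 of the 31 genes at 2 CPM or more were computed. Of these 101 (21.7%) had no overlap between the sexes, against 4.86% of all 75700360 pairs of tested genes at that level. Crnn was in 18 of them, Lce3f and Sprr1b in 16 each, Lce3c in 13 and Flg2 in 9, and pairs that share a gene are not independent. Many of the 31 genes also share their lowest libraries, and shared variation drops out of a ratio. The shares of the set and of all pairs are therefore not like for like, and no conclusion is drawn from them.

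**Figure D3:**
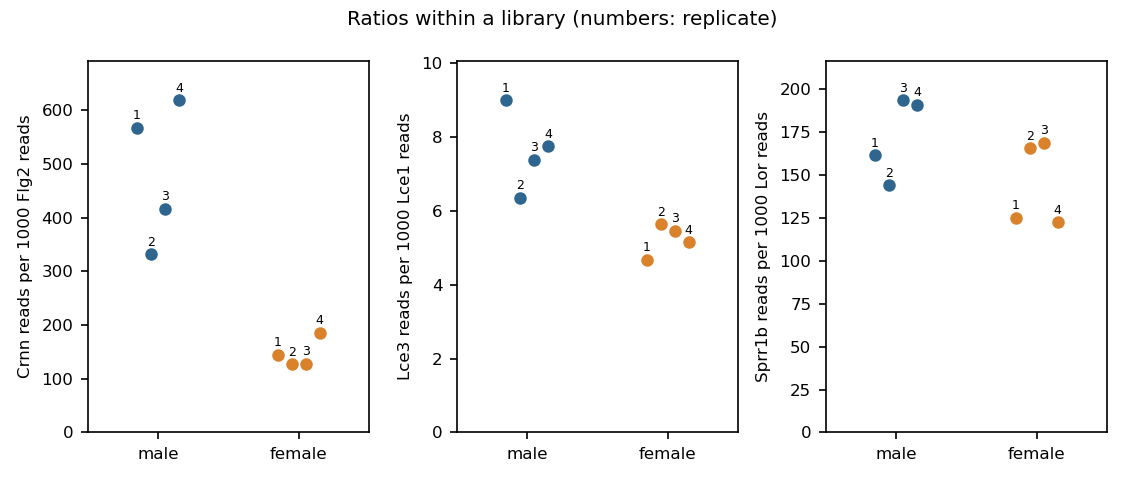
Read ratios within each of the 8 libraries (points, numbered by replicate; vertical axes start at 0): Crnn per 1000 Flg2 reads, the 4 Lce3 genes per 1000 reads of the 12 Lce1 genes, and Sprr1b per 1000 Lor reads. The sexes do not overlap in the left and middle panels (332 to 618 against 127 to 186, and 6.35 to 8.99 against 4.67 to 5.64) and overlap in the right panel.

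The remaining granule and scaffold genes overlapped between the sexes. Hrnr (hornerin) took 30.3 to 41.1% of the set's reads. It stood at 9421, 5824, 7635 and 9011 CPM in males and 3979.6, 8068, 7329.8 and 5654 CPM in females, with overlap (fitted log2 difference -0.35 with SE 0.25, edgeR adjusted p = 0.918; -0.19 without female replicate 1). Per kilobase of unique windows it was the most abundant gene of the set, and per kilobase of transcript the seventh. Rptn (repetin) spread most among the 4 fused S100 genes, at 220.5, 69.4, 158 and 226 CPM in males and 43.1, 131, 179 and 71.8 CPM in females. It was low in male replicate 2 and female replicates 1 and 4, a 5.25-fold range over the 8 libraries (fitted log2 difference -0.66 with SE 0.51, edgeR adjusted p = 0.941). Male replicate 2 and female replicate 1 also held the most fast muscle transcript (scores 10.03 and 9.57). Female replicate 4, also low, had a score of 7.59, below the 7.95 of male replicate 3, where Rptn stood at 158 CPM. The part of muscle in these levels was not tested. With the fast muscle score as a covariate the fitted log2 difference of Rptn was -1.06 (SE 0.29, edgeR adjusted p = 0.35). In the fit on sex alone the log2 difference of Rptn was -0.41 without female replicate 1 and -1.04 without female replicate 3.

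Ivl, the early scaffold gene, stood at 175, 165, 164 and 177 CPM in males and 114, 125, 178 and 111 CPM in females. The males lay close together and 3 females lay below them all, while female replicate 3 was the highest of the 8 (fitted log2 difference -0.36 with SE 0.15, edgeR unadjusted p = 0.0382, adjusted p = 0.749). Sbsn encodes suprabasin, a secreted protein of differentiating keratinocytes. It had 2263, 2014, 2116 and 2369.8 CPM in males and 1693, 2213, 2415 and 1756 CPM in females, which overlap (fitted log2 difference -0.12 with SE 0.14, edgeR adjusted p = 0.999), and the difference ran from -0.22 without female replicate 3 to -0.044 without female replicate 1. Between the abundant genes of this group, the level per kilobase of transcript was 948 CPM for Sbsn, 636 for Hrnr and 78.6 for Ivl, as means over 8 libraries.

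**Figure D4:**
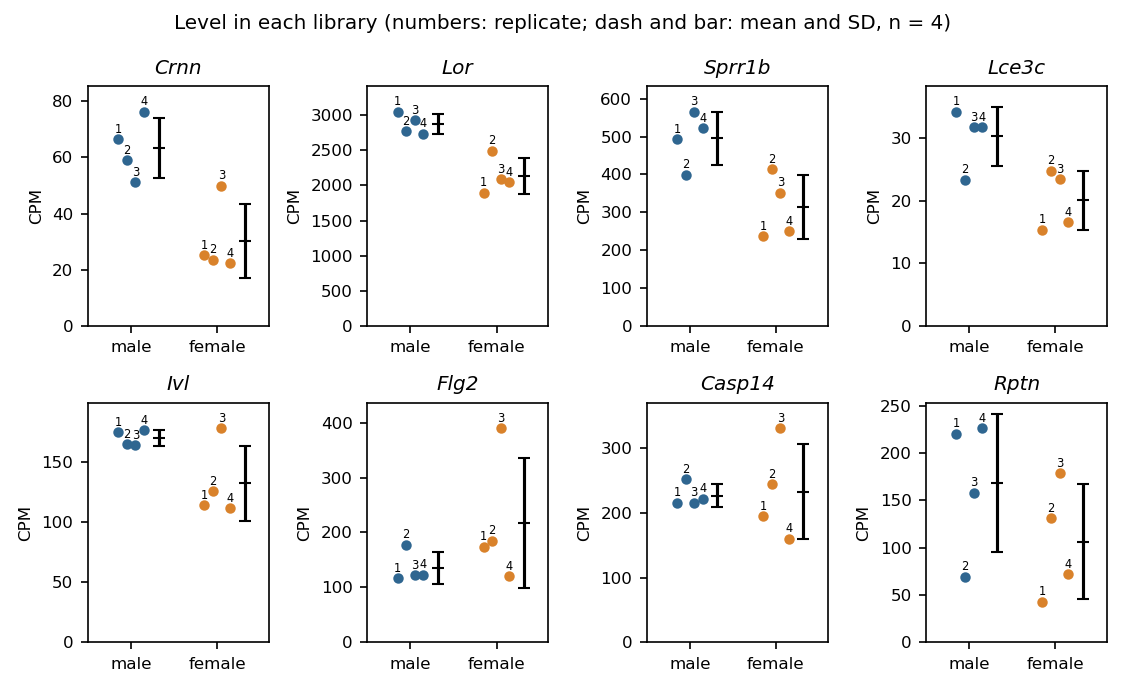
CPM of 8 genes in each library (points, numbered by replicate; the dash and bar to the right give the mean and SD, n = 4; vertical axes start at 0). Females lie below all males for Crnn and Lor, while for Ivl, Flg2 and Casp14 female replicate 3 is the highest of all libraries.

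The tested small proline-rich genes all lay below 0, 8 of 8 in the Sprr1 and Sprr2 group, with a median log2 fold change of -0.48 and 0 called. Of these 8, Sprr2e, Sprr2i and Sprr2k were near the filter on low counts, and Sprr2e passed it mainly through the males. The 5 with at least 2 CPM in every library lay below 0 with a median of -0.39. Among all genes at that level 46.7% lay below 0. Sprr1b, the cross-bridging protein most abundant here, stood at 492, 399, 566 and 523 CPM in males and 237, 413, 352 and 251 CPM in females. Only female replicate 2 exceeded the lowest male (495 ± 70.5 CPM in males and 313 ± 83.9 CPM in females; fitted log2 difference -0.66 with SE 0.20, edgeR unadjusted p = 0.00961, adjusted p = 0.594). Its relative Sprr1a, at 74, 49.6, 96 and 105 CPM in males and 50.3, 53.4, 99.8 and 44.8 CPM in females, overlapped widely (fitted log2 difference -0.39 with SE 0.31, edgeR adjusted p = 0.949), with -0.71 without female replicate 3 and -0.24 without male replicate 4.

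Of the Sprr2 genes 3 were well counted. Sprr2d stood at 44.3, 35.1, 29.9 and 37.1 CPM in males and 20.9, 27.6, 36.4 and 13.3 CPM in females (fitted log2 difference -0.58 with SE 0.28, edgeR adjusted p = 0.79). Sprr2h stood at 39.1, 44.7, 38.6 and 47.1 CPM in males and 31.6, 39.5, 50.6 and 26.2 CPM in females, and Sprr2b at 34.9, 33.3, 25.8 and 32.1 CPM in males and 30.0, 27.6, 32.4 and 19.2 CPM in females. In all 3 the lowest library was female replicate 4 and the sexes overlapped. Sprr2h had a log2 fold change of -0.20 (SE 0.19) and Sprr2b of -0.21 (SE 0.17). Without female replicate 4 they were -0.066 and -0.078, and that of Sprr2d was -0.37; without female replicate 3 that of Sprr2h was -0.39.

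The remaining Sprr genes were near the limit of detection. Sprr2e had 5 to 45 counts per library, Sprr2i 0 to 24 and Sprr2k 7 to 40, with log2 fold changes of -1.35 (SE 0.62), -0.95 (SE 0.71) and -0.33 (SE 0.53). Single libraries moved these values: Sprr2e was -0.54 without male replicate 1, Sprr2i -0.59 without female replicate 1, and Sprr2k -0.86 without female replicate 2 and 0.038 without male replicate 4. Sprr2g, not tested for low counts, had 44, 19, 15 and 7 counts in males and 1, 6, 10 and 5 in females. The counts of Sprr2g in male replicates 1 to 3 lay above those of every female, and male replicate 4 had fewer than female replicate 3. Also untested were Sprr2f (0 to 12 counts), the pseudogene Sprr2j-ps (0 to 6) and Sprr3, a gene of internal stratified epithelia, with 7, 2, 1 and 0 counts in males and 2, 2, 0 and 1 in females. The highest count of each of Sprr2e, Sprr2f, Sprr2g, Sprr2i, Sprr2j-ps and Sprr3 was in male replicate 1. Sprr4 stood at 6.97, 6.42, 10.6 and 9.45 CPM in males and 6.19, 2.86, 12.8 and 3.09 CPM in females, where female replicate 3 was the highest and female replicates 2 and 4 the lowest (fitted log2 difference -0.43 with SE 0.47, edgeR adjusted p = 0.999). The value for Sprr4 was -0.19 without female replicate 2 and -1.05 without female replicate 3.

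Among the late cornified envelope genes, the 12 Lce1 genes were abundant and lay close to 0. Each of the 12 lay below 0, by 0.02 to 0.33 on the log2 scale, with SEs of 0.15 to 0.19, a median of -0.15 and 0 called. This rested in large part on female replicate 1, though not on it alone. Without it the values shrank to -0.035 for Lce1a1, -0.031 for Lce1d, -0.020 for Lce1g, -0.0043 for Lce1h and -0.055 for Lce1i, and Lce1c turned to 0.026. They stayed at -0.23 for Lce1e, -0.11 for Lce1f, -0.084 for Lce1a2 and Lce1l and -0.076 for Lce1b. Without female replicate 4, Lce1c turned to 0.018 and Lce1m to 0.080. Lce1a1, the highest, stood at 824, 663, 782 and 812 CPM in males and 554, 807, 864 and 587 CPM in females (fitted log2 difference -0.13 with SE 0.17, edgeR adjusted p = 0.999). Lce1b stood at 595, 469, 590.0 and 579.8 CPM in males and 387, 583, 596 and 412 CPM in females, and Lce1a2 at 589, 480.1, 581 and 578 and 393, 587, 579 and 413 CPM. In these 3, as in the other Lce1 genes except Lce1m, female replicates 1 and 4 were the lowest libraries and male replicate 2 the lowest male. Lce1c, Lce1d, Lce1e, Lce1f, Lce1g, Lce1h, Lce1i and Lce1l repeated this pattern, with Lce1e showing the largest difference (fitted log2 difference -0.33 with SE 0.17, edgeR adjusted p = 0.804). An Lce1 gene shares up to 13.9% of its 50-base windows with 1 other Lce1 gene; the part of such shared sequence in their common pattern was not tested.

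Lce1m, which lies apart from the other Lce1 genes beyond the Lce3 cluster, did not share the pattern. It stood at 426, 552, 497 and 435 CPM in males and 472, 397, 651 and 363 CPM in females. Here male replicate 2 was the highest male and female replicate 3 the highest library, and the means were 478 ± 58.9 CPM in males and 471 ± 128 CPM in females (fitted log2 difference -0.02 with SE 0.19, edgeR adjusted p = 0.999). Its direction flipped in 3 of 20 alternatives. The order of its 8 libraries thus resembled that of Flg2 and Casp14 at the top: female replicate 3 was highest and male replicate 2 second in Lce1m and Casp14, and female replicate 3 was highest in Flg2.

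**Figure D5:**
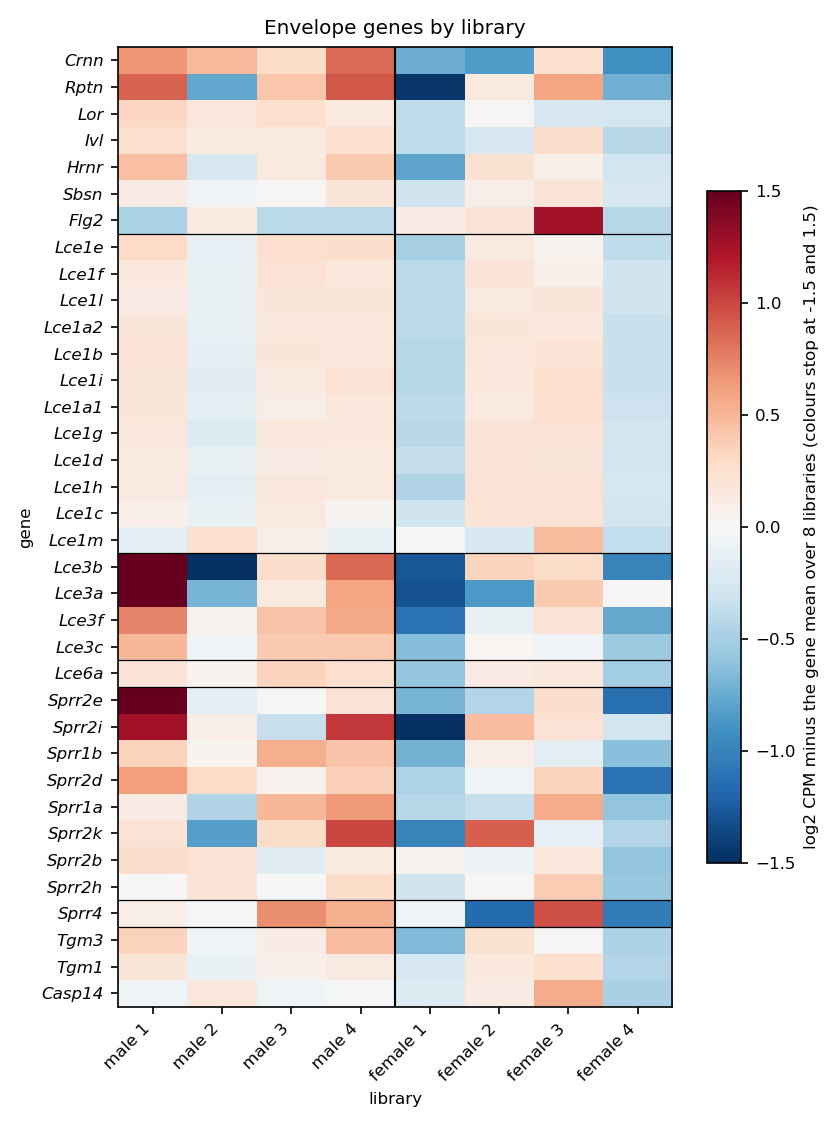
Log2 CPM of the 36 tested genes minus each gene's mean over the 8 libraries (colour, limited to -1.5 and 1.5), with males left and females right of the black line and families parted by thin lines. Female replicates 1 and 4 are blue in most rows, and female replicate 3 stands out in Flg2 and Casp14.

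The Lce3 genes, known to be induced when the barrier is damaged, were far scarcer, and their fitted differences ran from -1.34 to -0.59; the difference from the Lce1 genes was not tested. Lce3c stood at 34.2, 23.4, 31.8 and 31.8 CPM in males and 15.4, 24.8, 23.5 and 16.6 CPM in females. Female replicates 2 and 3 just passed the lowest male, male replicate 2 (30.3 ± 4.76 CPM in males and 20.1 ± 4.76 CPM in females; fitted log2 difference -0.59 with SE 0.19, edgeR unadjusted p = 0.0127, adjusted p = 0.64). Lce3f, at 11, 6.85, 8.94 and 9.84 CPM in males and 3.0, 6.1, 7.64 and 3.86 CPM in females, overlapped through female replicate 3 alone (fitted log2 difference -0.83 with SE 0.30, edgeR unadjusted p = 0.0228, adjusted p = 0.683). Lce3b had 72, 3, 16 and 28 counts in males and 4, 20, 20 and 8 in females, and Lce3a 44, 6, 12 and 19 and 3, 6, 18 and 15. Both were highest in male replicate 1 and were too thinly counted for their log2 fold changes of -1.34 (SE 0.81) and -1.13 (SE 0.64) to be firm. Without male replicate 1 they were -0.44 and -0.45.

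Set against each other within a library, the 4 Lce3 genes had 6.35 to 8.99 reads per 1000 Lce1 reads in males and 4.67 to 5.64 in females, without overlap and, since chosen after the values were seen, without a test. Sprr1b per 1000 Lor reads overlapped, at 144 to 193 in males and 123 to 169 in females. Lce6a, the single Lce6 gene, stood at 192, 173, 212 and 199 CPM in males and 113, 183, 189.8 and 118 CPM in females, with female replicates 1 and 4 far below the rest (fitted log2 difference -0.37 with SE 0.18, edgeR adjusted p = 0.808).

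Neither of the cross-linking enzymes passed the test. Tgm1, the membrane-bound transglutaminase, stood at 337, 278, 313 and 328 CPM in males and 252, 332, 352 and 220.4 CPM in females (fitted log2 difference -0.12 with SE 0.16, edgeR adjusted p = 0.999). Tgm3, the transglutaminase also active in the hair follicle, stood at 448, 342, 379 and 484 CPM in males and 222, 412, 357 and 254 CPM in females (fitted log2 difference -0.41 with SE 0.21, edgeR adjusted p = 0.815). Both overlapped between the sexes, and female replicates 1 and 4 were the lowest libraries of each. The difference of Tgm1 was -0.014 without female replicate 4 and -0.23 without female replicate 3. Per kilobase of transcript the 2 enzymes stood at 106 and 87.6 CPM.

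Female replicates 1 and 4 also held the least keratinocyte transcript, with scores of 9.56 and 9.42, where male replicate 2 had 9.62 and the other 5 libraries 9.81 to 10.14. A fit with this score as a covariate asked whether the envelope genes differ at an equal score. The score includes suprabasal genes such as Krt1, Krt10 and Krt2, so it cannot tell keratinocyte content from differentiation. The 36 genes then had a median of -0.26 with 34 below 0. An unadjusted p under 0.05 was reached by 11, all lower in females (background 6.03% lower in females), and 0 passed the adjustment, the smallest adjusted p being 0.0626 for Sprr1b. With the fast muscle score as a covariate, 18 had such a p (background 4.39%), 1 gene, Crnn, was called and the median was -0.43. Without male replicate 2 and female replicate 3, the libraries with the most and the least muscle, 15 had such a p (background 3.73%), 0 were called and the median was -0.48. Male replicate 2 was the lowest male in the Lce1 genes except Lce1m, and female replicate 3 the highest female in Crnn and Ivl. Leaving them out widens such differences by itself, so this fit cannot tell muscle content from the removal of these values.

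Genes that act with the envelope were read from lists chosen with earlier results of these data known. Of 19 tested partners and cross-linking genes 15 lay below 0 (median -0.15), 0 were called by edgeR, 2 had an unadjusted p under 0.05, and DESeq2 called 1; over all tested genes the shares were 47.3% below 0, 6.53% with such a p and 0.758% called by DESeq2. The plakin genes Evpl and Ppl, whose proteins anchor the envelope to the cell edge, had log2 fold changes of -0.16 (SE 0.15) and -0.17 (SE 0.17). Without female replicate 4 they were -0.062 and -0.083, and without female replicate 3 that of Ppl was -0.33. Cst6, encoding the inhibitor cystatin M/E, had -0.35 (SE 0.14, unadjusted p = 0.0375). Against the run of this list, Pglyrp4, a peptidoglycan-binding antibacterial protein gene, stood at 37.7, 25.7, 26 and 35.7 CPM in males and 52.1, 75.4, 76.3 and 45.7 CPM in females (fitted log2 difference 0.995 with SE 0.21, edgeR adjusted p = 0.262). The sexes did not overlap, as in 2.93% of all tested genes with females higher, and DESeq2 called it (adjusted p = 0.00351), as did edgeR with the keratinocyte score as a covariate (adjusted p = 0.00309).

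Of 15 tested genes of profilaggrin processing 11 lay below 0 (median -0.09), 0 were called by edgeR and 1 by DESeq2 (0.758% of all genes). Just 1 of the 15 had an unadjusted p under 0.05, a share near the 6.53% of all genes. It was the gene that DESeq2 called, Hal, which encodes histidase, the enzyme that turns histidine freed from filaggrin into urocanic acid. Hal stood at 237, 240.4, 182 and 213 CPM in males and 324, 403, 492 and 279.7 CPM in females, without overlap (fitted log2 difference 0.78 with SE 0.18, edgeR adjusted p = 0.363; DESeq2 adjusted p = 0.0148). Like Flg2 it was highest in female replicate 3.

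Of 36 tested regulators of epidermal differentiation 21 lay below 0 (median -0.04), 0 were called by edgeR, 4 had an unadjusted p under 0.05, and DESeq2 called 1, where the shares over all genes were 47.3% below 0, 6.53% with such a p and 0.758% called by DESeq2. Cebpb, a bZIP factor active in suprabasal keratinocytes, stood at 47.7, 50.6, 53.7 and 50.5 CPM in males and 33.8, 38.9, 25.2 and 31.8 CPM in females (fitted log2 difference -0.64 with SE 0.13, edgeR adjusted p = 0.205), without overlap, and DESeq2 called it (adjusted p = 0.000718). Maf, another bZIP factor of the differentiation programme, had -0.40 (SE 0.11, edgeR adjusted p = 0.509), and Nfe2l2, the oxidative stress factor known to induce Sprr2 genes, had -0.28 (SE 0.09, adjusted p = 0.627). All 3 had no overlap, with females lower, but for Nfe2l2 this held only with TMM scaling and not in plain CPM. Ovol1, a zinc-finger repressor of proliferation, had -0.59 (SE 0.24, adjusted p = 0.749), with overlap. The barrier factors Klf4 (-0.06, SE 0.12), Grhl3 (-0.07, SE 0.19) and Zfp750 (-0.10, SE 0.16) lay within 1 SE of 0, and the direction of each flipped without female replicate 4. Krt10, the keratin of the suprabasal layers, had -0.42 (SE 0.18, edgeR adjusted p = 0.754), close to the value of Lor, and was called once the keratinocyte score, of which it is a part, was a covariate (-0.39, adjusted p = 0.0381).

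Markers of other cell types in the paw were read in the same way, and edgeR called 0 of them. All 13 tested hair follicle markers lay above 0 (median 0.46), with a summed level of 167 to 708 CPM in males and 403 to 1319 CPM in females. Of the 18 fast muscle markers 17 lay below 0 (median -0.48), where 47.3% of all tested genes did. Their sums were 1025 to 30325 CPM in males and 41.2 to 22539 CPM in females. The fast muscle scores of female replicates 1 to 4 were 9.57, 6.67, 0.55 and 7.59, so the third lay far below the rest. The sums of both lists overlapped between the sexes. Markers of 1 tissue are not separate observations, and no sex difference in muscle or follicle content is read from these counts. The 18 keratinocyte markers split 10 below and 8 above 0, with sums of 85436 to 111152 CPM in males and 70111 to 103469.7 CPM in females. Of the 10 suprabasal markers 7 lay below 0 (median -0.12), and of the 8 basal markers 3 did (median 0.10). Of 11 markers of stressed keratinocytes 8 lay below 0 (median -0.07), among them Il1f6, an interleukin-1 family cytokine (-0.41, SE 0.18, edgeR adjusted p = 0.761). Single markers with an unadjusted p under 0.05 in the other lists were the Langerhans cell gene Cd207 (0.90, SE 0.24), the simple-epithelium keratin Krt7 (0.80, SE 0.25) and the sebaceous elongase gene Elovl3 (-0.77, SE 0.15). All 3 had no overlap between the sexes (background 2.93% higher and 1.81% lower in females). The rest of each list did not follow them. Krt7 was the only 1 of 7 tested eccrine gland markers above 0 (median -0.22). Of 8 leukocyte markers, Cd207 among them, 4 lay above 0 (median 0.01). Of 7 sebaceous markers, Elovl3 among them, 4 lay below 0 (median -0.18). DESeq2 called Elovl3 (adjusted p = 0.00121). With the keratinocyte covariate edgeR called Cd207 (adjusted p = 0.00479), 1 of 59 genes called in that fit. The part of tissue makeup in the differences of the envelope genes was tested only as far as the covariate fits above.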

How the data were processed

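PolyA RNA of paw tissue was sequenced by the authors as single-end 50-base reads after a stranded kit, per the labels' protocols. The submitters' processing notes list HTSeq, TopHat2 and bcl2fastq and the build mm9; no version, annotation or strand setting was given in the sources used. The authors deposited whole-number counts per gene symbol, unnormalized, 1 file per library. The 5 summary lines of each file name no gene and were left out; reads in no feature were 18.0 to 21.1% of uniquely placed reads, and the line of alignments that were not unique made up 45.2 to 48.7% of all lines.

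Female was compared with male in edgeR 4.0.16 (R 4.3.3): filterByExpr, TMM, robust glmQLFit, glmQLFTest, Benjamini-Hochberg over all 14790 tested genes, calls at an adjusted p under 0.05. SE was taken as the absolute log2 fold change divided by the root of F. Alternatives used DESeq2 1.42.0, limma-voom (limma 3.58.1) with and without library weights, other size factors, filters and thresholds, covariates, a replicate block and left-out libraries. Log2 CPM scores used a prior count of 2. In data simulated for this comparison (14675 genes tested), the shares recovered by edgeR were 71 of 72 at a 4-fold change, 28 of 61 at 2-fold and 12 of 61 at 1.5-fold, with 1 false call. Simulated counts were drawn independently for each gene and library at the trended dispersion. They held no spread particular to a gene and no shared variation in tissue makeup, so these shares hold for that setting only. Replicate pairs of 1 sex differed by a chi-square of at least 13.2 per degree of freedom over genes with 20 or more counts, so none was treated as 1 library.

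Members, lists and named genes were chosen with earlier results of these data known: every member, the 5 of smallest p in full, and from each list the genes with an unadjusted p under 0.05 (up to 4) plus Klf4, Grhl3, Ovol1, Zfp750, Evpl and Ppl. All 42 members matched GENCODE and RefSeq symbols of GRCm38, whose build differs from the deposited one. From these references come the chromosomes and gene order, the printed sequences, the unique-window shares, the transcript lengths behind levels per kilobase and the motif counts.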

Additional observations from a re-analysis of the deposited data

Results flagged for a closer look

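In 72 comparisons of 4 libraries of 1 sex (36 genes, each sex), 9 had a library whose gap to its nearest neighbour was large against the range of the 4. For a single comparison chance gives about 1 in 20. Of the 9, 7 were in male replicate 2. Most of these 7 were Lce1 genes, which share their pattern over the libraries. The 9 are thus not separate observations, and no excess over chance is read from them. There, Lce1a2 stood at 8.91 log2 CPM, Lce1b at 8.87, Lce1d at 8.73, Lce1e at 7.78, Lce1g at 8.53 and Lce1h at 8.04, each below the other 3 males. Those 3 lay between 9.17 and 9.20 for Lce1a2, and between 8.89 and 8.90 for Lce1g. Flg2 stood at 7.48 log2 CPM in the same library, above the 6.87 to 6.95 of the other males. Male replicate 2 had the highest fast muscle score; its part in these values was not tested. Crnn stood at 5.64 log2 CPM in female replicate 3, against 4.48 to 4.67 in the other females. Sprr2e stood at 1.22 log2 CPM in male replicate 1, against -0.79 to -0.45 in the other males.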

How the results depend on the processing

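Over 20 alternatives, 1029 of 1055 pairs of a named gene and an alternative kept the direction and the side of the threshold. The median of the tested members stayed between -0.48 and -0.20, and from -0.41 to -0.20 when 1 library was left out. The count of members called was 2 with DESeq2 and 1 with the fast muscle covariate, and 0 to 1 when 1 library was left out. It was 0 in the other fits and at an adjusted p under 0.1. The count over all genes, 14 in the reported fit, was 112 with DESeq2, 59 with the keratinocyte covariate, 7 with the replicate block, 9 without male replicate 2 and female replicate 3 and 8 to 16 when 1 library was left out. Casp14 turned to -0.010 with limma-voom, -0.012 with the replicate block, -0.11 with the fast muscle covariate and -0.14 without male replicate 2 and female replicate 3. With 1 library left out, the log2 fold changes that turned ranged from -0.18 to 0.18 for Casp14 (turned without female replicate 3), -0.22 to 0.080 for Lce1m (without male replicate 2, female replicate 2 or 4), -0.14 to 0.026 for Lce1c and -0.25 to 0.052 for Grhl3 (each without female replicate 1 or 4), -0.86 to 0.038 for Sprr2k (without male replicate 4), and -0.13 to 0.011 for Klf4 and -0.23 to 0.0098 for Zfp750 (each without female replicate 4). The reported value of each of these genes lay within 1 SE of 0; the cause was not tested. The replicate block used numbers that the labels do not tie to shared litters or days. Same-numbered libraries correlated at -0.31, -0.17, -0.09 and -0.27 in their deviations from the sex means, so none of these pairs deviated together. With 4 libraries per sex and uneven muscle, this check cannot exclude a smaller shared effect. Low counts limit Lce3a, Lce3b and the rare Sprr2 genes.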
